A study of Mus musculus with 4 samples.

Results

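Genes of thyroid hormone signalling were read in 4 bulk messenger RNA libraries of mouse brain, 2 from Stra8-KO animals (KO) and 2 from wild-type animals (WT). The 8 genes were chosen by name from known biology, with earlier results of these data known. They are the receptors Thra and Thrb, the deiodinases Dio2 and Dio3, the transporter Slc16a10, the binding protein Crym and the target genes Hr and Klf9. All 8 were found among the 55414 genes counted, and all 8 passed the filter on low counts that left 21592 genes tested. STRA8 is induced by retinoic acid in germ cells and is known for its role in the start of meiosis. The series design states that mice of both genotypes carried a pStra8-GFP reporter (green fluorescent protein under the promoter of Stra8) and that GFP-positive hippocampal cells were sorted before sequencing. The tissue is given in the labels only as brain, and no source used here states how old the mice were, their sex or how many made up 1 library.

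Thyroid hormone circulates mainly as thyroxine (T4), which a deiodinase converts to the more active triiodothyronine (T3). In the brain, T4 and T3 cross membranes through transporters, DIO2 makes T3 mainly in astrocytes and tanycytes, and DIO3, mainly in neurons, inactivates it. T3 binds nuclear receptors encoded by Thra and Thrb, which pair with retinoid X receptors on DNA and change the transcription of genes such as Hr and Klf9.

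Total counts lay between 71097417 and 82172740 per library, and between 28356 and 28801 genes were detected. Stra8 had 7 and 4 reads in the KO libraries, against 5 and 1 reads in the WT libraries, so at this depth the genotype labels could not be checked from the targeted gene. Markers of brain regions other than hippocampus were present in all 4 libraries and differed between genotypes. The libraries thus held more than the RNA of sorted hippocampal cells that the design states, and why was not tested. The 6 cerebellar granule cell markers summed to 160 and 161 CPM (reads of a gene scaled to the size of the library) in KO libraries, against 269 and 274 CPM in WT libraries, and 7 anterior pituitary genes to 29.4 and 29.2 CPM in KO against 61.7 and 61.9 CPM in WT. Of the tested hippocampal markers, 6 of 8 dentate granule genes and 3 of 6 CA1 genes fell and 0 rose, while 8 of 8 striatal and 5 of 8 neocortical genes rose and 0 fell. Over all tested genes 3.19% fell and 3.35% rose at the same threshold (adjusted p under 0.05 in edgeR). In bulk libraries, fewer cells of a type and less RNA per cell cannot be told apart. Nothing in the labels ties a library to an animal, so the p-values measure only the spread between these libraries, which may be technical.

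Stretches of 250 bases before the annotated start of transcription were searched for motifs. An entry was found for 5 of the 8 genes, with 6 windows in all, while Thra, Hr and Crym had none and were not searched. The stretches are shown for both deiodinase genes, because they differ in the motifs they hold. For Thrb, the 1 searched gene with a receptor half-site, the window that holds it is shown. The sequences are from RefSeq on GRCm38.p6, another build than the GRCm39 named for the counts. They run 5′ to 3′ on the strand of the gene, and capitals mark the motif matches described after them.
Dio2 (chr12:90739039-90739288, minus strand): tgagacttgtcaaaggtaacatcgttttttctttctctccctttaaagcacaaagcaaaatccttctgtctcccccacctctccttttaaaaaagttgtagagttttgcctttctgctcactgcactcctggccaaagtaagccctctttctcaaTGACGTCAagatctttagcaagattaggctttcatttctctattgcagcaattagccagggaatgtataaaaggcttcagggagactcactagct
Dio3 (chr12:110278980-110279229, plus strand): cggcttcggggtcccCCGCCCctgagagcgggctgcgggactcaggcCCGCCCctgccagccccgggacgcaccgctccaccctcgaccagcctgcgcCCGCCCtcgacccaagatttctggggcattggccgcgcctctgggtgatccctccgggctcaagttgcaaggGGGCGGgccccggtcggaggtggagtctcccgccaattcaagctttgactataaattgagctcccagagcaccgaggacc
Thrb (chr14:17660710-17660959, plus strand): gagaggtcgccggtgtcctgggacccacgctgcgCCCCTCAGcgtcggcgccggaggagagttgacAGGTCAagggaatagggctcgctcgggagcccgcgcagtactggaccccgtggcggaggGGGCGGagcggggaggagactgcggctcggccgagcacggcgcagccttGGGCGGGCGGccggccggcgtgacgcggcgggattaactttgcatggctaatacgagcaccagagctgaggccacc

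Both strands were searched for 5 motifs, and positions are those of the first base, counted back from -1 at the base before the start. The Dio2 window held the cyclic AMP response element TGACGTCA at -95, a motif present in 1.55% of 32851 such windows of all genes. The GC box GGGCGG, a site type bound by Sp and Krüppel-like factors, was found in 32.7% of all windows. It occurred in the Dio3 window at -235, -203, -152 and -80 and in the Thrb window at -125, -76 and -72, the last 2 overlapping each other. The receptor half-site AGGTCA, found in 14.0% of all windows, occurred at -184 in the Thrb window. The same window held CNCCTCAG, the motif described at STRA8-bound promoters in mouse germ cells, at -216, which 6.42% of all windows held. The direct repeat of half-sites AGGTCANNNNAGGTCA, found in 0.0152% of windows, was in none of the 6. The second Thrb window and that of Klf9 held none of the 5 motifs, and that of Slc16a10 held 3 GC boxes. A match describes letters in these windows and shows no binding.

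Of the 8 genes, 2 fell in KO libraries and 0 rose. Crym, which encodes the T3-binding protein mu-crystallin, fell by 0.18 on the log2 scale, and Dio2, the T3-making deiodinase, fell by 0.08. The other 6 did not pass the test, and 4 of the 8 had an unadjusted p under 0.05, which 17.4% of all tested genes had. Over all 21592 tested genes 3.19% were lower and 3.35% higher in KO (6.53% in all; adjusted p under 0.05 in edgeR's quasi-likelihood test, 2 libraries in each genotype). The KO and WT libraries did not overlap in CPM for 5 of the 8 genes, 4 lower and 1 higher in KO, where 45.7% of all tested genes did not overlap (22.9% lower and 22.8% higher in KO). At an adjusted p under 0.1, which 9.05% of tested genes reached, the members counted were the same 2. The median log2 fold change of the 8 was -0.05, against -0.00038 over all tested genes, and the median size of change over all tested genes was 0.087.

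**Figure D1:**
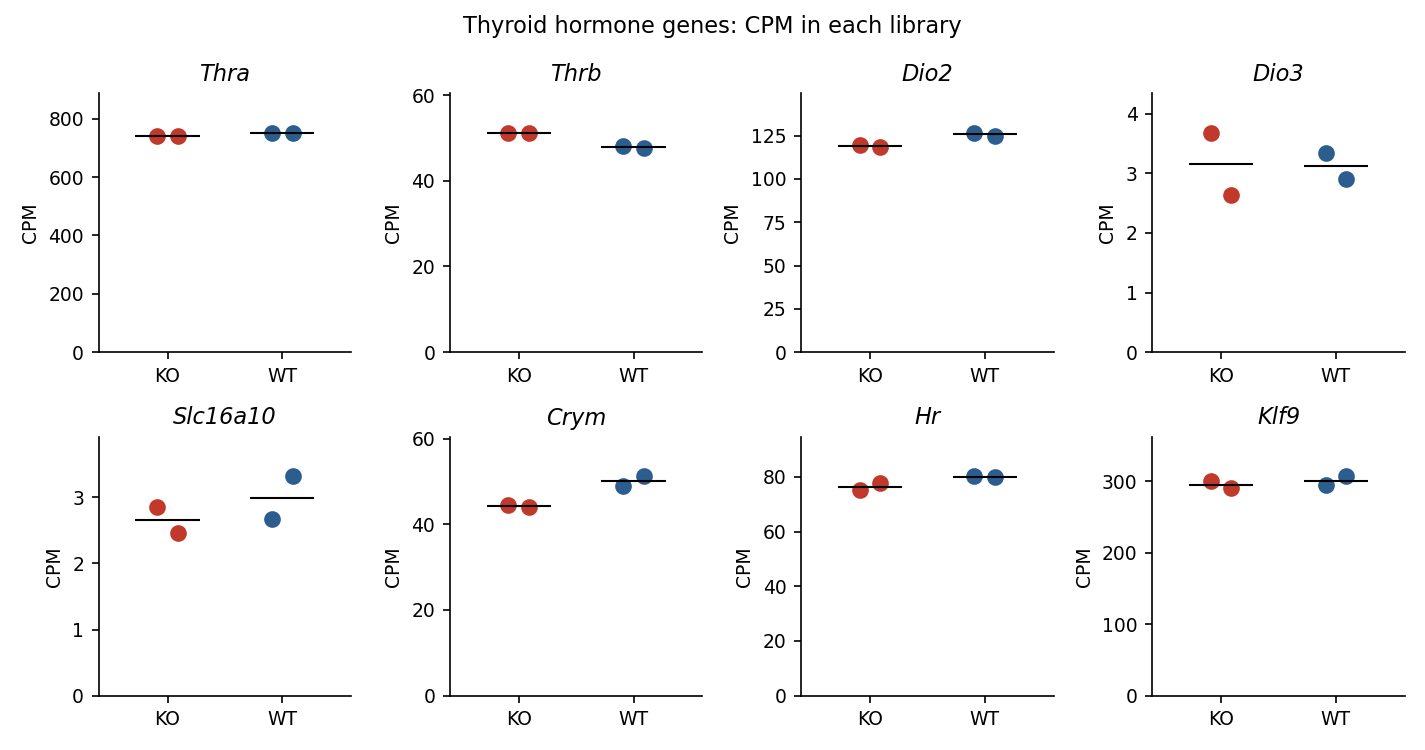
CPM of each of the 8 genes in every library (points), with KO left of WT and a line at the mean of the 2 libraries; each vertical axis starts at 0 and has its own range. Crym and Dio2 lie lower in both KO libraries than in both WT libraries, while the libraries overlap for Dio3, Slc16a10 and Klf9.

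The receptors differed little between genotypes. Thra (ENSMUSG00000058756), which encodes the receptor TRα1 and a splice form that does not bind T3, had 741 and 740 CPM in KO libraries, against 751 CPM in each WT library. The KO libraries were thus both lower, by an amount that did not pass (log2 fold change -0.02, 95% interval -0.05 to 0.01, edgeR adjusted p = 0.479). In the GENCODE M21 annotation exons of Thra overlap exons of Nr1d1, which lies antisense to it and encodes the clock repressor REV-ERBα. How strand was treated in counting is not stated in the labels, so reads of the shared stretch cannot be assigned to either gene. Nr1d1 had 122 and 119 CPM in KO libraries, against 118 and 121 CPM in WT libraries, and the genotypes overlapped (log2 fold change 0.0041, edgeR adjusted p = 0.966).

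Thrb (ENSMUSG00000021779), which encodes the receptor of pituitary feedback and of the developing cochlea and retina, was the 1 member with both KO libraries above both WT libraries. It had 51.1 and 51.2 CPM in KO libraries, against 48.1 and 47.6 CPM in WT libraries. The log2 fold change of 0.10 (SE 0.035, 95% interval 0.02 to 0.17) had an unadjusted p of 0.0113 and an edgeR adjusted p of 0.117, so the gene did not pass. Per kilobase of exon, using exon lengths of GENCODE M21, the level of Thra was 23.3 and 23.2 times that of Thrb in KO libraries, against 25.05 and 25.3 times in WT libraries. All isoforms of each gene enter these levels, so the ratio is of gene counts and not of T3-binding receptor.

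Of the deiodinase genes, Dio2 fell by a small amount and Dio3 was too low for a precise value. Dio2 (ENSMUSG00000007682) had 9797 and 8399 reads in KO libraries, against 10209 and 10239 in WT libraries, which correspond to 120 and 119 CPM in KO and 127 and 125 CPM in WT. Both KO libraries were lower than both WT libraries. The means were 119 ± 0.79 CPM in KO and 126 ± 1.21 CPM in WT (SD, n = 2 each), a log2 fold change of -0.08 (SE 0.023, 95% interval -0.13 to -0.03, edgeR adjusted p = 0.0437). The call stood close to the threshold: without 1 library the log2 fold change lay between -0.09 and -0.07, and the adjusted p was 0.0651 without KO library 1, 0.159 without KO library 2, 0.292 without WT library 1 and 0.088 without WT library 2. It was also above 0.05 with limma-trend, with the dispersion set to 0 and with counts halved (0.0553, 0.0544 and 0.0621).

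Astrocytes transcribe much of the Dio2 of rodent brain, and of 10 astrocyte markers 4 fell and 0 rose, with a median log2 fold change of -0.05. The 4 were Gfap, Slc1a3, Gjb6 and Aldoc (-0.07, -0.10, -0.17 and -0.07). The other 6 did not pass, and among them the genotypes overlapped for Slc1a2, Aldh1l1 and Aqp4 (-0.0067, -0.0043 and -0.011). The summed level of the 10 was 5681 and 5670 CPM in KO libraries, against 5796 and 5808 CPM in WT libraries. Of 6 tanycyte markers 0 passed in edgeR (1 at an unadjusted p under 0.05, and 0 in limma-trend or among the 4 with an adjusted p in DESeq2), with a median of 0.06 and a summed level of 47.3 and 47.0 CPM in KO and 45.95 and 47.6 CPM in WT. Rax, a defining tanycyte gene, was at or below 0.14 CPM in all 4 libraries and at 0 in KO library 1. The part of these cells in the Dio2 value was not tested. The GENCODE M21 annotation places the noncoding gene Gm26512 antisense to Dio2 with overlapping exons. That gene had 109 and 80 reads in KO libraries, against 108 and 120 in WT libraries.

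Dio3 (ENSMUSG00000075707), an imprinted gene expressed from the paternal allele, had 301 and 187 reads in KO libraries, against 269 and 238 in WT libraries. These are 3.68 and 2.64 CPM in KO and 3.33 and 2.90 CPM in WT, and both WT libraries lay between the KO libraries. The gene did not pass (log2 fold change 0.03, SE 0.149, edgeR adjusted p = 0.964), and the interval reached 0.82-fold on one side and 1.26-fold on the other. Dio3os, the noncoding RNA of the same locus, had 18 and 25 reads in KO libraries, against 18 and 27 in WT libraries. Per kilobase of exon the level of Dio2 was 11.4 and 15.7 times that of Dio3 in KO libraries, against 13.3 and 15.0 times in WT libraries, and the genotypes overlapped. Dio1, the deiodinase of liver and kidney, had 0 reads in all 4 libraries, which allows up to 0.0847 CPM in the shallowest (3 read pairs, or 6 reads where both mates are counted; counting error only).

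**Figure D2:**
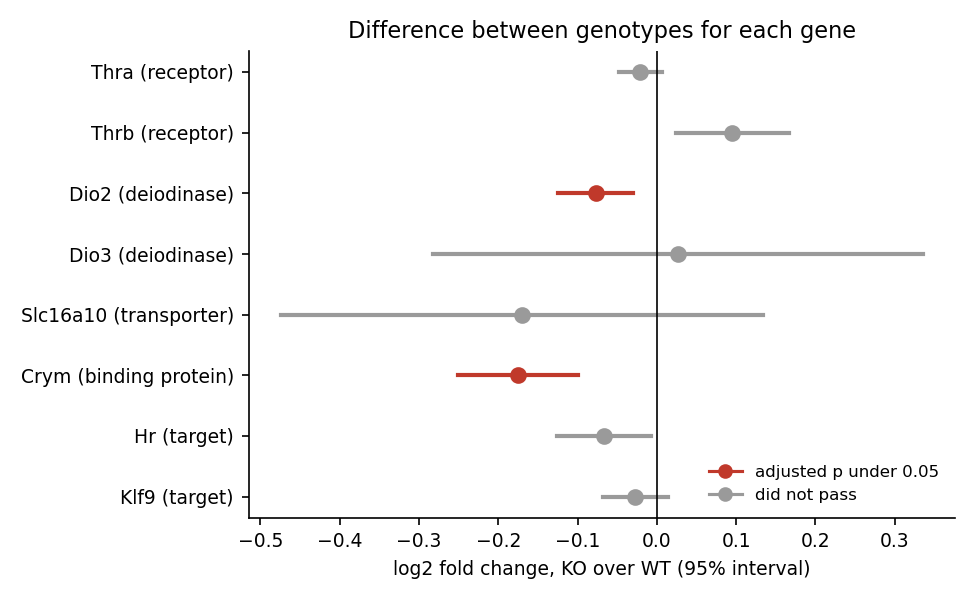
Log2 fold change of each gene, KO over WT (points), with its 95% interval (bars). Crym and Dio2 passed at an adjusted p under 0.05, and the widest intervals are those of Slc16a10 and Dio3, the 2 genes with the fewest reads.

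Slc16a10 (ENSMUSG00000019838) encodes MCT10, a carrier of T3, T4 and aromatic amino acids. It had 234 and 174 reads in KO libraries, against 216 and 272 in WT libraries, or 2.86 and 2.46 CPM in KO and 2.68 and 3.32 CPM in WT. The genotypes overlapped. The log2 fold change of -0.17 (SE 0.147, 95% interval -0.47 to 0.13, edgeR adjusted p = 0.634) was close in size to that of Crym but had the wider error. Leaving out WT library 2 gave a value of -0.0073 and leaving out WT library 1 one of -0.32.

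Crym (ENSMUSG00000030905) had the smallest p of the 8 genes. The gene encodes a cytosolic protein that binds T3 in a manner dependent on NADPH, and it is transcribed in neurons of neocortex, striatum and hippocampus. It had 3647 and 3118 reads in KO libraries, against 3941 and 4195 in WT libraries, which are 44.6 and 44.0 CPM in KO and 48.9 and 51.2 CPM in WT. Both KO libraries were lower than both WT libraries. The SD between the libraries of a genotype was 0.38 CPM in KO and 1.62 CPM in WT (n = 2 each), and the log2 fold change was -0.18 (SE 0.037, 95% interval -0.25 to -0.10, edgeR adjusted p = 0.00296). Without WT library 2, the higher of its pair, the log2 fold change was -0.14 and the adjusted p 0.0721. Without any other single library the gene passed, at an adjusted p of 0.00101 to 0.00812.

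Crym fell beside marker lists that moved in both directions. In regions where it is known to be transcribed, 5 of 8 neocortical markers rose (median log2 fold change 0.14; summed level 756 and 753 CPM in KO, 700 and 703 CPM in WT) and all 8 striatal markers rose (median 0.31; 1079 and 1077 CPM in KO, 898 and 900 CPM in WT). Dentate granule markers had a median of -0.45 (371 and 368 CPM in KO, 420 and 410 CPM in WT) and CA1 markers one of -0.07 (457 and 446 CPM in KO, 476 and 473 CPM in WT). The sign of the Crym change was that of the medians of the hippocampal lists and opposite to that of the neocortical and striatal medians. Within the lists, 3 of 8 neocortical and 3 of 6 CA1 markers did not pass. Lists of other cells also had medians below 0, such as cerebellar granule (-0.97), choroid plexus (-0.49) and Purkinje markers (-0.37), while the oligodendrocyte median was 0.07. The part of any of these cells in the Crym value was not tested.

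**Figure D3:**
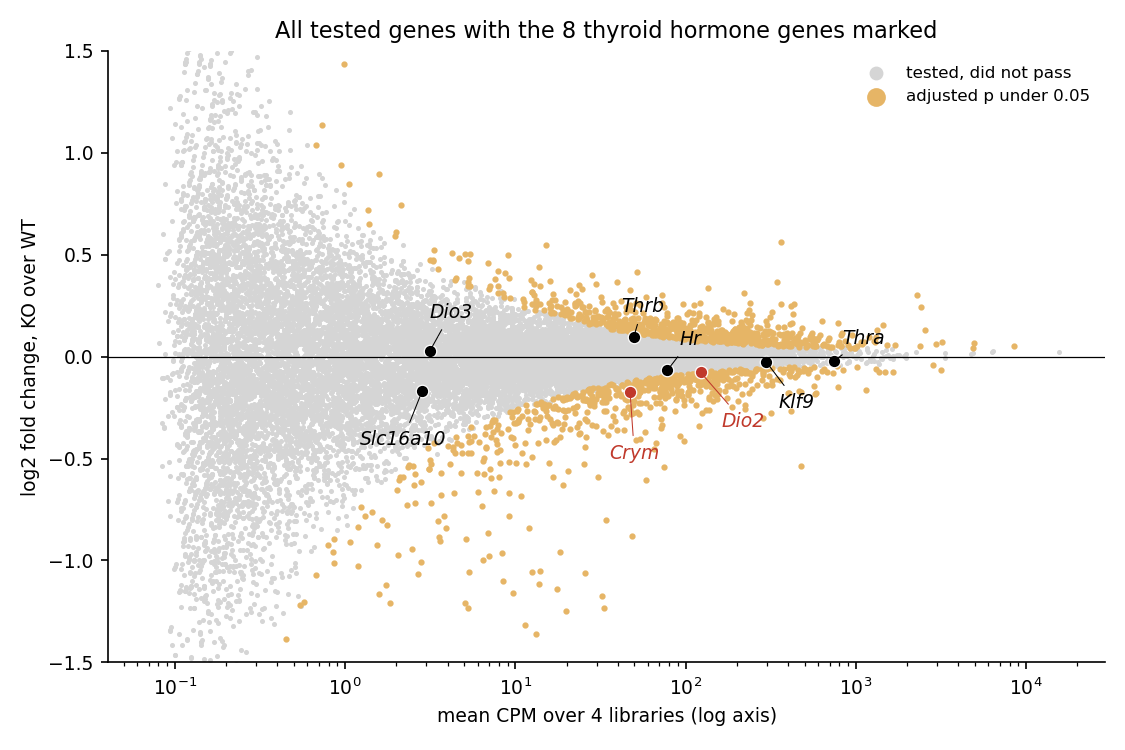
Mean CPM over the 4 libraries (horizontal, log axis) against the log2 fold change, KO over WT, for all tested genes (grey, did not pass; yellow, adjusted p under 0.05), with the 8 genes named. The 8 lie within 0.18 of 0, and 105 genes beyond 1.5 on the vertical axis are not drawn.

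The target genes did not pass. Hr (ENSMUSG00000022096), a nuclear corepressor that T3 induces directly in rodent brain, had 75.1 and 77.7 CPM in KO libraries, against 80.1 and 79.8 CPM in WT libraries. Both KO libraries were lower, and the log2 fold change of -0.07 (SE 0.029, 95% interval -0.13 to -0.01) had an unadjusted p of 0.0296 and an edgeR adjusted p of 0.215. Without KO library 1, the lower of its pair, the log2 fold change was -0.04 (edgeR adjusted p = 0.645). Klf9 (ENSMUSG00000033863), a Krüppel-like transcription factor that both T3 and glucocorticoids induce, had 301 and 290.0 CPM in KO libraries, against 295 and 307 CPM in WT libraries. The genotypes overlapped, and the interval of its log2 fold change was narrow around 0 (-0.03, 95% interval -0.07 to 0.01, edgeR adjusted p = 0.55).

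Other genes that respond to glucocorticoids were read beside Klf9. Of 10 glucocorticoid-responsive genes 9 fell and 0 rose, with a median log2 fold change of -0.34. Over all tested genes 3.19% fell and 3.35% rose. Sgk1, a kinase gene induced by corticosteroids, had 60.9 and 60.0 CPM in KO libraries, against 86.6 and 89.3 CPM in WT libraries (log2 fold change -0.54, edgeR adjusted p = 4.89e-12). Plin4, a lipid droplet coat gene, fell by 1.06 on the log2 scale, Tsc22d3, which encodes the glucocorticoid-induced leucine zipper, by 0.39 and the metallothionein gene Mt2 by 0.35. Some lists of other cells fell in the same libraries, 5 of 6 cerebellar granule, 6 of 8 choroid plexus and 6 of 8 dentate granule markers (medians -0.97, -0.49 and -0.45). Others rose, 8 of 8 striatal, 7 of 8 oligodendrocyte and 5 of 8 neocortical markers (medians 0.31, 0.07 and 0.14). The part of these cells in the values of the glucocorticoid-responsive genes was not tested. In its branch of the Krüppel-like family, Klf13 fell by 0.15 (187 ± 2.90 CPM in KO and 208 ± 1.51 CPM in WT; SD, n = 2 each) and Klf10 rose by 0.15, while 3 others did not pass. The Klf10 call was lost without KO library 1, WT library 1 or WT library 2 (edgeR adjusted p = 0.31, 0.111 and 0.069).

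Per kilobase of exon, the 8 genes kept 1 order in all 4 libraries. Thra was the most abundant, at 161 and 160 CPM per kilobase in KO libraries and 163 CPM per kilobase in each WT library, above 99.3% of tested genes. Klf9 followed, at 60.2 to 63.7 CPM per kilobase over the 4 libraries, then Dio2 (20.4 to 21.8), Crym (12.98 to 15.1), Hr (10.9 to 11.6) and Thrb (6.43 to 6.91). Dio3 (1.30 to 1.81 CPM per kilobase) and Slc16a10 (0.334 to 0.451 CPM per kilobase) came last, above 44.3% and 24.7% of tested genes. The ranges of neighbours in this order did not overlap.

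The rest of the pathway was read from lists of 63 genes, of which 60 were tested, with 9 higher and 7 lower in KO and a median log2 fold change of -0.0061. These are 15.0% and 11.7% of the 60, where 3.35% of all tested genes were higher and 3.19% lower. The lists were drawn up with earlier results of these data known, and the shares were not compared by a test. Among 7 other transporters and carriers 2 fell and 0 rose. Ttr, which encodes the T4 carrier transthyretin of cerebrospinal fluid, had 388 and 383 CPM in KO libraries, against 560 CPM in each WT library (log2 fold change -0.54, edgeR adjusted p = 1.29e-17). It is also a choroid plexus gene, and of the 7 other choroid plexus markers 5 fell and 0 rose, with summed levels of 59.65 and 57.4 CPM in KO and 82.75 and 82.4 CPM in WT. The part of choroid plexus in the Ttr value was not tested. Slc7a5, the light chain of the LAT1 amino acid carrier that also takes thyroid hormone, had 68.6 and 70.3 CPM in KO libraries, against 76.3 CPM in each WT library (log2 fold change -0.14, edgeR adjusted p = 0.00344).

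Of 6 tested genes that act on deiodinases or recover iodine, 1 rose and 0 fell. That gene was Usp33, which encodes a deubiquitinase that stabilises DIO2, with 130 and 128 CPM in KO libraries, against 117 and 119 CPM in WT libraries (log2 fold change 0.13, edgeR adjusted p = 0.00055). Among the 3 retinoid X receptors, the partners of the thyroid receptors on DNA, 1 rose and 0 fell. Rxrg had 18.3 and 17.7 CPM in KO libraries, against 13.4 and 14.4 CPM in WT libraries (log2 fold change 0.37, edgeR adjusted p = 0.000324). This gene is known to be strongly transcribed in striatum, whose 8 markers all rose, and the part of that tissue in its value was not tested.

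Of 6 corepressor genes 0 passed in edgeR, DESeq2 or limma-trend, with a median of -0.01. Hdac3 had a log2 fold change of 0.05 and Tbl1x one of 0.05, the 2 smallest p-values of that list (edgeR adjusted p = 0.42 and 0.439), and 0 of the 6 reached an unadjusted p under 0.05. Without 1 library Tbl1x ranged from 0.01 to 0.09. Of 8 coactivator genes 1 fell and 0 rose, with a median of -0.05. Crebbp, which encodes the acetyltransferase CBP, had 140 and 139 CPM in KO libraries, against 148 and 149 CPM in WT libraries (log2 fold change -0.09, edgeR adjusted p = 0.00926, and 0.066 without WT library 2). Of 6 tested genes of the hypothalamus-pituitary-thyroid axis 0 passed in edgeR or limma-trend, and 1 had an unadjusted p under 0.05. DESeq2 gave an adjusted p for 2 of the 6, Cga not among them, and neither passed. That gene was Cga, the common alpha subunit of the pituitary glycoprotein hormones, with 0.366 and 0.565 CPM in KO and 0.744 and 0.902 CPM in WT (log2 fold change -0.83, SE 0.315, edgeR adjusted p = 0.139). Leaving out KO library 1 gave Cga a value of -0.54. It stands in the anterior pituitary list too, of which the other 3 tested genes fell, and the part of pituitary in its value was not tested. Trh, the hypothalamic releasing hormone, had 9.58 and 8.89 CPM in KO and 8.24 and 8.73 CPM in WT, and Tshb, the thyrotropin subunit, was too low to be tested.

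**Figure D4:**
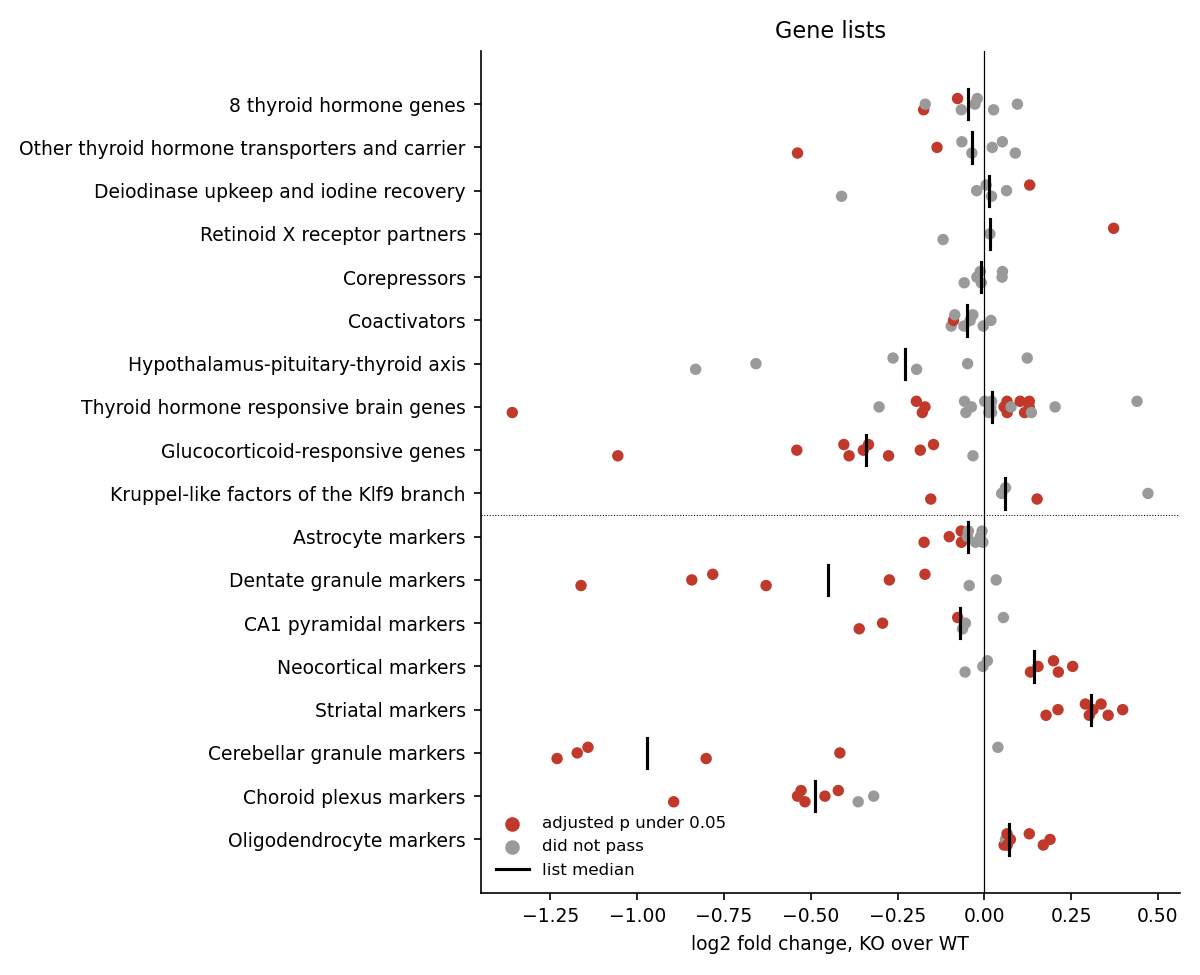
Log2 fold change, KO over WT, of each tested gene (points; red, adjusted p under 0.05) in the 8 thyroid hormone genes, the pathway lists (above the dotted line) and marker lists (below it), with a black bar at each list median. The 8 genes have a median of -0.05, and the cerebellar granule, choroid plexus and dentate granule markers have medians of -0.97, -0.49 and -0.45.

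Of 24 brain genes known to respond to thyroid hormone, mostly in rodent development, 7 rose, 4 fell and 13 did not pass, with a median of 0.02. These are 29.2% higher and 16.7% lower, where 3.35% of all tested genes were higher and 3.19% lower, and the shares were not compared by a test. Nrgn, the postsynaptic protein neurogranin, had 1387 and 1385 CPM in KO libraries, against 1256 and 1278 CPM in WT libraries (log2 fold change 0.13, edgeR adjusted p = 1.00e-07). Pcp2, a Purkinje cell gene, had 7.55 and 7.23 CPM in KO libraries, against 18.6 and 19.4 CPM in WT libraries (log2 fold change -1.36, edgeR adjusted p = 2.12e-12). Itpr1, the inositol trisphosphate receptor that Purkinje cells hold in quantity, fell by 0.18.

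Of these 24 genes, 7 also stand in a marker list of a cell type or region, and all 7 passed, 4 higher and 3 lower. The 4 higher ones are oligodendrocyte markers, a list in which 7 of 8 genes rose (summed level 10470 and 10490 CPM in KO, 9868 and 9948 CPM in WT). The 3 lower ones stand in the list drawn up for Purkinje cells, in which 7 of 7 fell. That list summed to 781 and 785 CPM in KO and 927 and 935 CPM in WT. The counts and sums of both lists include these 7 genes and are no separate support. Itpr1 alone had 538.5 and 547.9 CPM in KO and 613.4 and 616.3 CPM in WT. Mbp alone had 5054 and 5072 CPM in KO and 4821 and 4858 CPM in WT. Not all genes of the Purkinje list are particular to that cell. Calb1 also stands in the dentate granule list, and Pvalb in that of GABAergic neurons. Among the 17 genes in no marker list, 3 rose, 1 fell and 13 did not pass, with a median of 0.02. The part of these cells in the values was not tested.

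For the 2 genes that fell, the genes with the most similar pattern over the 4 libraries were sought among 11463 tested genes, by the root mean square difference of centred log2 CPM. For Crym these were Btg2, Zfp942 and Gata2, at 0.00436, 0.00651 and 0.00728. For Dio2 they were Slc27a1, Ncdn and Ermp1, at 0.00193, 0.00231 and 0.00248. The measure rests on 4 libraries in 2 groups, and the likeness is a description of these libraries.

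**Figure D5:**
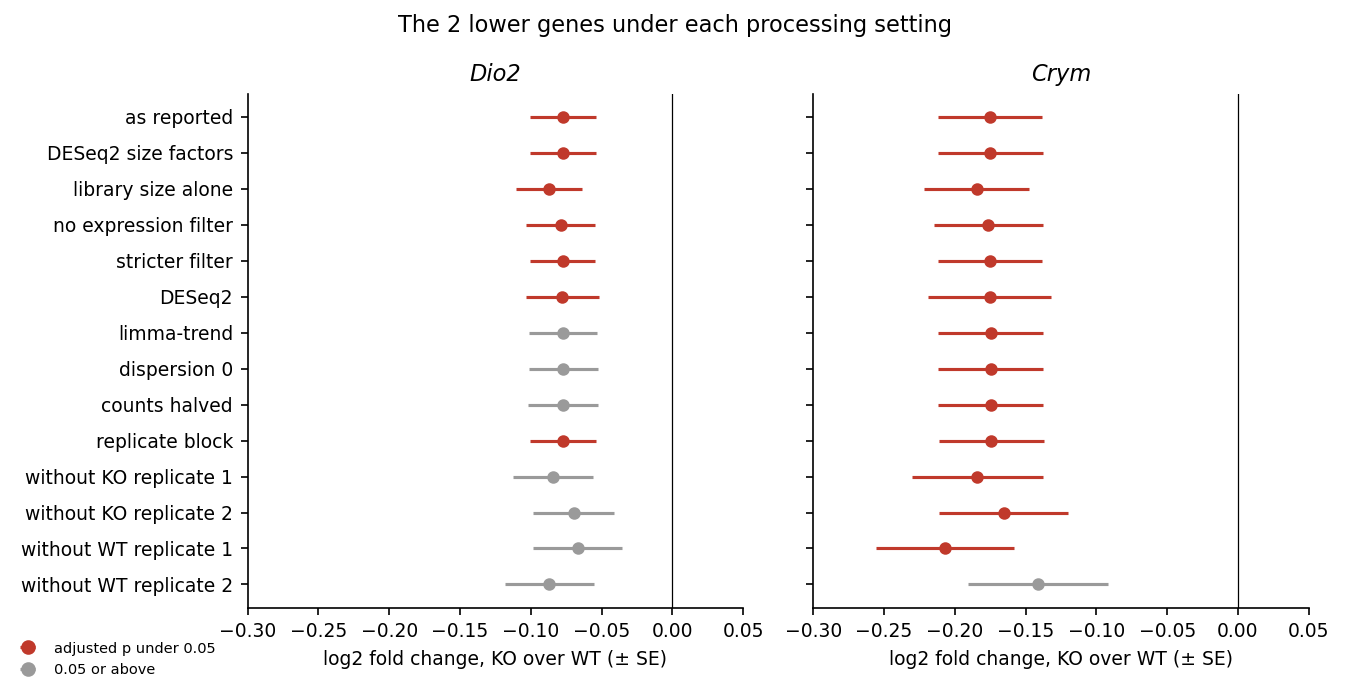
Log2 fold change, KO over WT, of Dio2 and Crym (points, with SE) as reported and under each alternative setting, in red where the adjusted p was under 0.05. Crym passed in 12 of 13 alternatives and Dio2 in 6 of 13, and the value was below 0 in all of them.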

How the data were processed

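Raw counts of reads per gene were deposited as 1 table of 55414 Ensembl mouse genes by 4 libraries. The submitters' processing notes name STAR 2.6.1c, featureCounts, FastQC, DESeq2 and GRCm39, with no roles. The annotation, how strand was counted and how reads of several loci were handled were not given in the sources used here. Per the labels' protocols, oligo dT beads captured the messenger RNA, and strand-specific libraries were read in pairs. Even numbers made up 72.8% to 74.3% of deposited counts from 1 to 20, so both mates of a pair appear to be counted and counting error is larger than read numbers alone would give. Columns were matched to samples by name, and symbols came from a reference table that matched 52081 identifiers.

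Counts were fitted in R 4.3.3 with edgeR 4.0.16: filterByExpr by genotype (minimum count 10), TMM scaling, and glmQLFit and glmQLFTest on genotype over all 4 libraries. A gene was called at an adjusted p (Benjamini-Hochberg, over all tested genes) under 0.05, and fold changes are KO over WT. CPM uses the TMM-scaled library size. The standard error is the size of the log2 fold change over the square root of F, and 95% intervals use it with the degrees of freedom of the test. Alternatives were other scalings, filters and tests (DESeq2 1.42.0, limma-trend with limma 3.58.1, edgeR with dispersion 0), halved counts, a replicate block, a threshold of 0.1 and each library left out. The procedure was tested on simulated data, and its recovery of changes as small as those of Crym and Dio2 is not reported here.

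The members, lists and tests were chosen with earlier results of these data known. From each pathway list up to 4 called genes with the smallest p are named, or 2 where none was called; 1 gene that this rule takes is not reported here. The 3 most alike genes of each called member had a mean of at least 5 CPM and a symbol that is no Gm number, Rik clone or identifier.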

Additional observations from a re-analysis of the deposited data

How the results depend on the processing

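The count of members lower in KO was 2, and it was 1 with limma-trend and with the dispersion set to 0. With each library left out in turn, which leaves a lone library taken to vary as the other genotype's pair does, it ranged from 0 to 1; the cause was not tested. With counts halved it stayed 2 but with Thra (log2 fold change -0.02, adjusted p = 0.00443) in place of Dio2. That Thra call rests on a standard error of 0.0045, against 0.013 as reported and 0.012 to 0.017 under the other alternatives, at nearly the same fold change, so it is doubtful; the cause was not tested. No member was called higher under any alternative, the threshold of 0.1 included. Over all genes 723 were higher and 688 lower, and every alternative gave counts within 1.5 times of these, 601 and 828 with library size alone. The replicate numbers of the labels did not pair the libraries (correlation of deviations 0.029 between same-numbered libraries over 11907 genes). The replicate block gave 818 genes higher and 772 lower, 0 members higher and the same count of 2 members lower.

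Signs changed for genes with values near 0. Without 1 library the log2 fold change ranged from -0.24 to 0.24 for Dio3, from -0.054 to 0.00053 for Klf9, from -0.014 to 0.023 for Nr1d1 and from -0.33 to 0.35 for Dio3os. Nr1d1 was at -0.0055 with library size alone, and Dio3os at -0.037 with counts halved. Depth limits Dio3 and Slc16a10, with 174 to 301 reads per library, to the wide intervals given.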

Other observations

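Nr1d2, which encodes the clock repressor REV-ERBβ, a relative of Nr1d1, had 94.3 and 87.5 CPM in KO libraries, against 95.6 and 96.0 CPM in WT libraries. Both KO libraries were lower, and the gene did not pass (log2 fold change -0.07, SE 0.030, edgeR adjusted p = 0.173). Without KO library 1 its log2 fold change was -0.13 and it passed (edgeR adjusted p = 0.00433), while over the other alternatives it did not.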
